A study of Mus musculus with 4 samples.

Results

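State 5 is 1 of 7 numbered states that the authors gave to microglia, the resident macrophages of the brain, in a single-cell RNA study of mouse cortex. Its members were taken from the authors' deposited cell annotation and comprised 2718 of the 9077 microglia with a state (29.9%), and 17.6% of the 15451 deposited cells. The donors were 18-month-old APP/PS1 mice, which deposit amyloid plaques, in both genotypes. ADAM mice carried the APP/PS1 transgenes and lacked the receptor tyrosine kinases Axl and Mertk (APP/PS1 Axl-/- Mertk-/-), and AD mice carried APP/PS1 alone, so every group had the transgenes and no mouse without plaques is among these samples. Each library held CD45+ cells sorted from 2 pooled cortices, and there were 2 biological replicates of each genotype. State 5 had 631 and 771 cells in ADAM 1 and ADAM 2, against 594 and 722 cells in AD 1 and AD 2. The sources used here name neither the cells that lost Axl and Mertk nor the part of each gene that was deleted.

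Microglia near amyloid plaques are known to leave their resting program and take on one called disease-associated, in which P2ry12, Tmem119 and other resting genes fall and genes for lipid handling, lysosomes and surface receptors rise. Entry into the full program in plaque-bearing mice is known to need the receptor Trem2 and its adaptor Tyrobp. Axl and Mertk are receptors that bind Gas6 on membranes that expose phosphatidylserine, and Mertk also binds protein S. Both receptors serve the uptake of dying cells and dampen cytokine signalling in macrophages. Axl is known to be raised in plaque-associated microglia.

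The 4 genes that mark the state were all far above their level in state 0, the state with the highest Tmem119 and P2ry12. Levels here are CPM, a gene's unique molecular identifiers (UMIs) per 1000000 UMIs of the cells of 1 state in 1 library. Spp1, which encodes the secreted glycoprotein osteopontin, had 4973 and 3944 CPM in ADAM 1 and ADAM 2, against 8442 and 4892 CPM in AD 1 and AD 2. In state 0 Spp1 lay between 35.5 and 56.3 CPM in the 4 libraries. Gpnmb, a transmembrane glycoprotein of late endosomes and the cell surface, had 871 and 1053 CPM in ADAM and 1489 and 1353 CPM in AD, against 7.38 to 13.4 CPM in state 0. Cst7, which encodes cystatin F, an inhibitor of lysosomal cathepsins, had 5084 and 4327 CPM in ADAM and 6036 and 4549 CPM in AD, against 116 to 203 CPM in state 0. Itgax, the CD11c integrin chain, had 547 and 530 CPM in ADAM and 728 and 588 CPM in AD, against 18.0 to 26.7 CPM in state 0. All 4 genes were highest in AD 1, and the libraries of the genotypes overlapped for Spp1 and Cst7 and not for Gpnmb and Itgax.

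The name therefore fits its markers, and none of the 4 markers was exclusive to the state. State 4 had a median of 5374 CPM of Spp1, above the median of 4933 CPM in state 5. The medians of Gpnmb, Cst7 and Itgax were lower in state 4, at 167, 589 and 179 CPM against 1203, 4816 and 568 CPM. Other genes of the disease-associated program were higher in state 4. Medians there were 1235 CPM for Lpl, 1007 for Clec7a and 42813 for Apoe, against 1005, 610 and 37675 CPM in state 5. Trem2 was lower in state 4, at 3141 against 7206 CPM. State 6 had medians of 678 CPM of Gpnmb and 3007 CPM of Cst7. Mmp12, a secreted elastase that marks state 4, stood at 603 to 1211 CPM there and at 5.81 to 17.8 CPM in state 5. Resting genes were low but not lost: P2ry12, the purinergic receptor of resting microglia, had 493 and 321 CPM in ADAM and 369 and 323 CPM in AD in state 5, against 1389 to 2246 CPM in state 0. Trem2 lay between 6803 and 8233 CPM in state 5 and between 2629 and 2900 CPM in state 0. The labels do not say how the authors made the states; since the marker genes may have served to make them, levels of one state beside another are a description and were not tested.

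**Figure D1:**
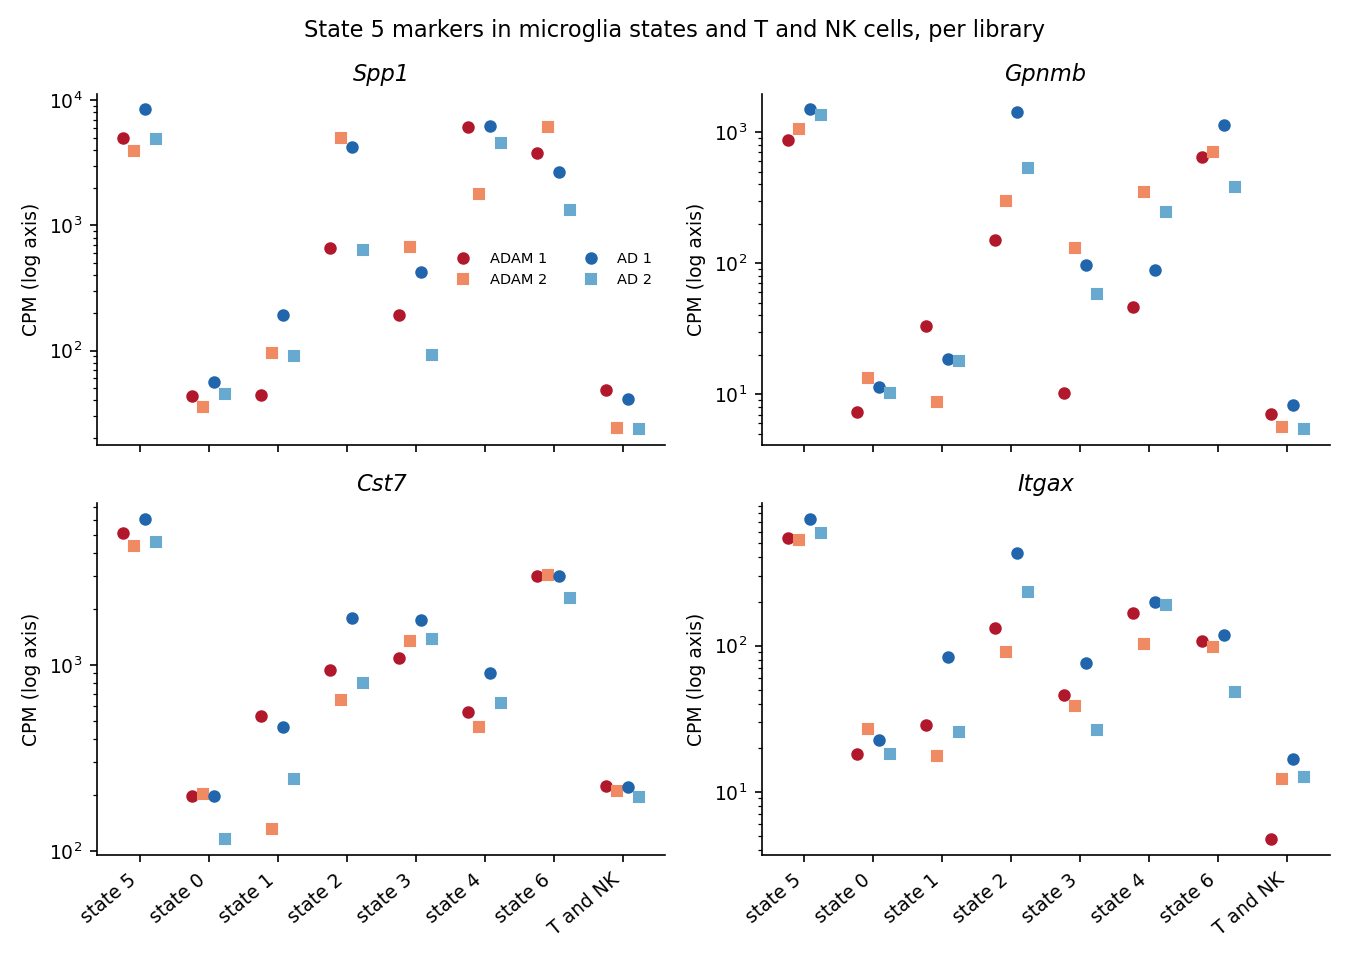
CPM (log axis) of the 4 marker genes in each microglia state and in T and NK cells; each point is 1 library, with the 2 ADAM libraries left of the 2 AD libraries. State 5 has the highest Cst7 and Itgax of all sets in each library, whereas Spp1 reaches 6168 CPM in state 4 of ADAM 1 and 6077 CPM in state 6 of ADAM 2.

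The state 5 cells of the 4 libraries were of similar quality. Summed UMIs lay between 3955381 and 6183082 per library, the median depth between 6200.5 and 7883 UMIs per cell, and the median mitochondrial share between 2.63% and 3.14%. No state 5 cell was marked as a doublet by the authors, 96 of 2718 held a UMI of Cd3d, Cd3e or Cd3g, and 2 shared a barcode with a state 5 cell of another library. ADAM 2 stood apart in RNA of other cells: the 7 neutrophil markers summed to 14.5 and 704 CPM in ADAM 1 and ADAM 2, against 13.4 and 25.4 CPM in AD 1 and AD 2. At least 1 UMI of S100a8, S100a9 or a haemoglobin gene was found in 747 of the 771 ADAM 2 cells, against 63 in ADAM 1, 45 in AD 1 and 121 in AD 2. In ADAM 2 none of the 7 neutrophil markers was at 0, whereas Ngp and Ltf were at 0 in the other 3 libraries.

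Many genes besides the markers set state 5 off from state 0. Of 3090 genes with at least 50 CPM in either state, 851 were higher in state 5 in all 4 libraries and 1815 were lower. The highest mean ratio belonged to Atp6v0d2, a subunit of the vacuolar proton pump, which had 71.2 and 99.7 CPM in ADAM and 122 and 119 CPM in AD, 134-fold the level in state 0. Atp6v0d2 lay between 0.351 and 0.945 CPM in state 0, so its ratio and its rank rest on few UMIs. Spp1 was 120-fold and Gpnmb 112-fold higher than in state 0. Next came Mamdc2, at 79.1-fold, and Dkk2, a secreted modulator of Wnt signalling, at 68.0-fold. In state 0 these were also low, at 1.07 to 4.04 CPM for Mamdc2 and 1.45 to 2.99 CPM for Dkk2. The fatty acid binding protein genes Fabp5 and Fabp3 were 50.5-fold and 38.4-fold higher. Cck, the gene of the neuropeptide cholecystokinin, was 49.0-fold higher, heparanase (Hpse) 45.7-fold and the growth factor gene Igf1 44.2-fold. Ch25h, which makes 25-hydroxycholesterol, was 39.8-fold higher and the MHC class II chain H2-Aa 34.2-fold. These ratios are to state 0 alone. In state 4 the mean over the libraries was 66.0 CPM for Ch25h, near the 72.8 CPM of state 5. Fabp5 and Igf1 had means of 814 and 209 CPM in state 4, against 2096 and 512 CPM in state 5. Mamdc2 and Dkk2 were far lower in state 4, at 3.77 and 7.52 CPM against 186 and 145 CPM.

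The genes lowest relative to state 0 were Ecscr, at 18.2-fold lower, and the crystallin gene Crybb1, at 16.9-fold lower. Tmem119, a surface protein of resting microglia, was 10.4-fold lower. By list, 14 of 16 measured genes of secreted disease-associated proteins, 13 of 16 surface genes, 10 of 12 lipid genes, 14 of 16 glycolysis genes and 5 of 7 MHC class II genes were higher in state 5 in all 4 libraries. Of the homeostatic list, 22 of 23 measured genes were lower in all 4 libraries and 1 was higher. Of the immediate early genes, the fast response genes that are also induced by dissociation of tissue, 20 of 24 measured were lower in state 5 than in state 0.

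State 5 was not uniform from cell to cell. To compare cells at 1 depth, each cell was thinned to 2000 UMIs, which kept 618 and 754 cells of ADAM 1 and ADAM 2, and 565 and 708 cells of AD 1 and AD 2. All 4 markers then had a UMI in 20.4% and 25.5% of the ADAM cells, against 35.4% and 29.5% of the AD cells. At least 3 of the 4 were found in 45.8% and 49.6% of the ADAM cells, against 61.1% and 56.4% of the AD cells. Both ADAM libraries were below both AD libraries; the means were 47.7 ± 2.69% in ADAM and 58.7 ± 3.33% in AD (SD, n = 2 each), and an exact two-sided permutation test gave p = 0.33, the smallest that 2 against 2 libraries allow. Without thinning the shares were 62.3% and 65.0% in ADAM and 73.2% and 72.3% in AD. In state 0 at most 0.419% of thinned cells had 3 or more markers, in T and NK cells at most 0.697%, and in state 4 between 8.70% and 14.3%.

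The markers differed in how evenly the cells shared them. After thinning, Cst7 had a UMI in 94.2% and 94.3% of ADAM cells and in 97.5% and 93.5% of AD cells. Gpnmb had one in 35.3% and 43.5% of ADAM cells, against 50.1% and 49.6% of AD cells; T and NK cells, taken here as the background, gave 0.918% to 2.21% at the same depth, with unthinned medians of 2925.5 to 3547.5 UMIs per cell. Spp1 had one in 51.3% and 54.6% of ADAM cells and in 66.7% and 59.5% of AD cells. The 10% of cells with the most Spp1 held 77.9% and 66.8% of its UMIs in ADAM 1 and ADAM 2, against 63.0% and 64.0% in AD 1 and AD 2, whereas the top 10% for Cst7 held 26.8% to 31.5%. A single ADAM 1 cell carried 2573 Spp1 UMIs, 11.1% of that library's total, while the median ADAM 1 cell carried 2.

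**Figure D2:**
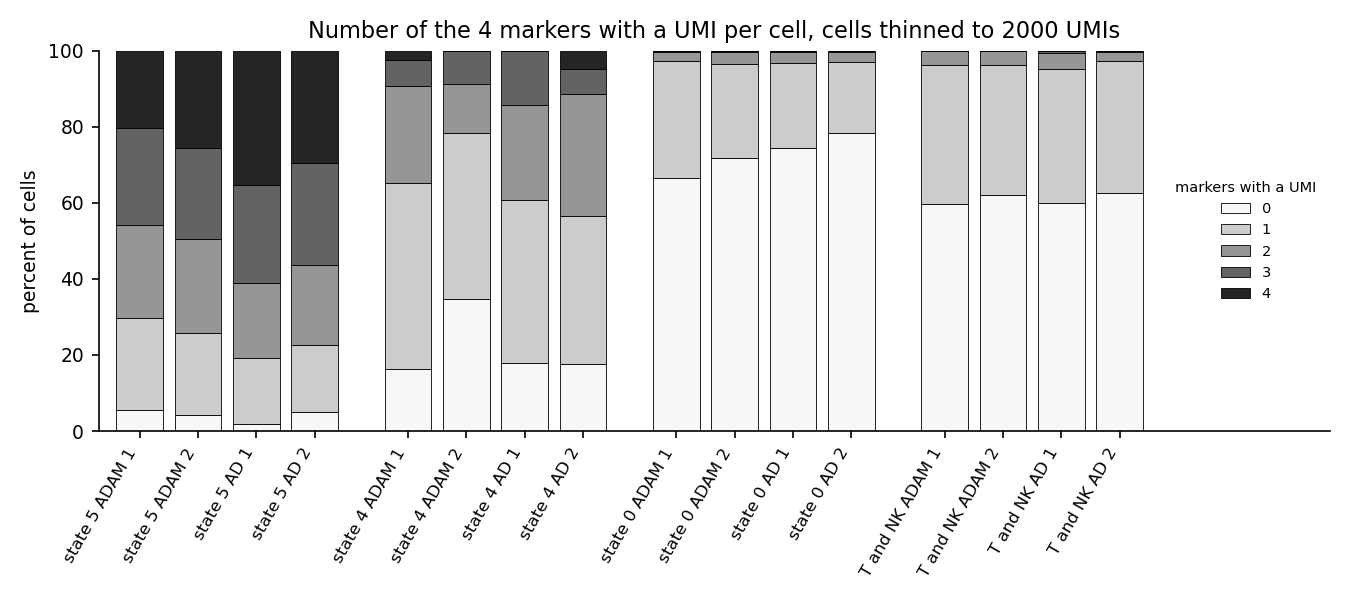
Percent of cells (vertical axis) in which 0, 1, 2, 3 or 4 of the markers Spp1, Gpnmb, Cst7 and Itgax had a UMI, with each cell thinned to 2000 UMIs; each bar is 1 library of 1 set of cells, ADAM left of AD. The darkest segment, all 4 markers, covers 20.4% and 25.5% of ADAM state 5 cells and 35.4% and 29.5% of AD state 5 cells.

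The size of the state did not separate the genotypes. State 5 made up 27.2% (95% exact binomial interval 25.4% to 29.1%) and 37.4% (35.3% to 39.6%) of microglia in ADAM 1 and ADAM 2, against 37.1% (34.8% to 39.5%) in AD 1 and 23.3% (21.8% to 24.8%) in AD 2; the intervals cover counting error only. The lowest and the highest share were 1 library of each genotype, and the means of 32.3 ± 7.21% in ADAM and 30.2 ± 9.78% in AD (SD, n = 2 each) gave p = 0.667 in an exact two-sided permutation test. Sorting and dissociation can set such shares, and their part in the spread was not tested.

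Axl, the deleted receptor (chr7:25757273-25788705, minus strand, GRCm38), served as the check of the labels. Axl had 9.84 and 11.5 CPM in ADAM, from 46 and 64 UMIs, against 170 and 142 CPM in AD, from 674 and 880 UMIs. No library overlapped, and the log2 fold of ADAM over AD was −3.87 (SE 0.16; adjusted p = 2.4e-09, edgeR quasi-likelihood test on summed counts). Thinned cells with an Axl UMI were 1.78% and 2.52% in ADAM and 24.8% and 22.9% in AD. In AD state 0 cells the share was 4.19% and 4.70%. Mertk (chr2:128698956-128802894, plus strand) had 141 and 203 CPM in ADAM and 187 and 181 CPM in AD, with overlapping libraries, a fold of −0.10 on the log2 scale (SE 0.15) and an adjusted p of 0.99 from edgeR. Whether the Mertk tags lie in the deleted part is not known from the sources used here, so Mertk does not check the label. The ligand genes Gas6, at 222 and 187 CPM in ADAM and 220 and 229 CPM in AD, and Pros1, which encodes protein S, at 126 and 128 CPM against 120 and 119 CPM, were not called; Tyro3, the other receptor of the family, had 0 UMIs in state 5.

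Between the genotypes, 16 of 10436 tested genes (0.153%) were called in state 5 at an adjusted p under 0.05 in the edgeR test, 10 higher (0.0958%) and 6 lower (0.0575%) in ADAM. At an unadjusted p under 0.05 there were 553, and the median log2 fold of all tested genes was 0.00. Of the 16 genes, 8 lay within 20 Mb of Axl or Mertk, as did 476 of the 10436 tested genes. The libraries of the genotypes did not overlap for any of the 16. In every alternative in which they were tested, 6 of them stayed called, Spint1, Axl, Gatm, Eif3j2, Eif3j1 and Socs3.

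Spint1, near Mertk, had the largest log2 fold of the 16, followed by Eif3j2, Axl, Pcna-ps2 and Gatm. Spint1, a membrane-bound inhibitor of serine proteases (chr2:119237362-119249527), had 0 and 1 UMI in ADAM 1 and ADAM 2, against 338 and 498 UMIs in AD 1 and AD 2, a ratio of 0.00118 (exact 95% counting interval 3.0e-05 to 0.0066). Gatm, the first enzyme of creatine synthesis (chr2:122594467-122611303), had 469 and 375 CPM in ADAM, against 45.0 and 50.6 CPM in AD (log2 fold 3.13, SE 0.14, adjusted p = 5.8e-09). Spint1 was also at 0 to 0.351 CPM in ADAM state 0 cells and at 104 and 105 CPM in AD state 0 cells, and Gatm was higher in ADAM there too, at 1177 and 996 CPM against 141 and 143 CPM. Eif3j1, part of the initiation factor eIF3, had 20.7 and 31.3 CPM in ADAM and 105 and 103 CPM in AD, while its copy Eif3j2 on chromosome 18 had 35.3 and 43.9 CPM in ADAM and 1.77 and 0.809 CPM in AD. Likewise Pcna, the sliding clamp of DNA replication, had 14.8 and 13.1 CPM in ADAM and 34.9 and 31.2 CPM in AD, and its processed pseudogene Pcna-ps2 had 4.71 and 4.48 CPM in ADAM and 0.758 and 0.162 CPM in AD. Reads can be shared between such copies, so these 4 values are uncertain. Plcb2, a phospholipase C, was higher in ADAM (27.2 and 20.9 CPM against 11.1 and 11.2 CPM), and Dstn, which encodes the actin-severing protein destrin, was lower (83.0 and 104 CPM against 143 and 157 CPM). With thinned cells neither Pcna nor Plcb2 was called (adjusted p = 0.214 and 0.997, edgeR), and with limma-voom neither Plcb2 nor Dstn was (adjusted p = 0.053 for both).

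**Figure D3:**
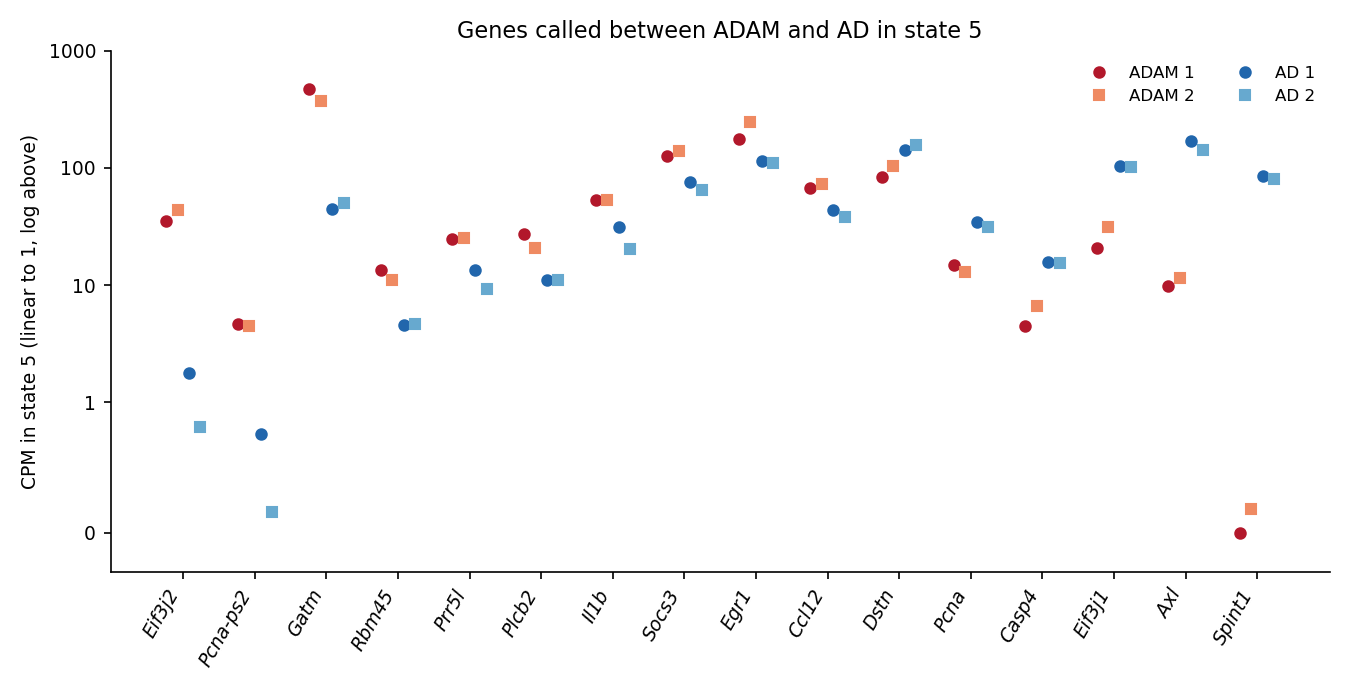
CPM in state 5 (linear from 0 to 1, log above) of the 16 genes called between the genotypes, ordered by log2 fold; each point is 1 library, with ADAM left of AD. The pairs of points do not overlap for any gene, and Spint1 is at 0 and 0.179 CPM in ADAM against 85.5 and 80.5 CPM in AD.

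Outside the 20 Mb windows lay 8 called genes: Eif3j2, Socs3, Casp4, Ccl12, Prr5l, Egr1, Pcna-ps2 and Rbm45. Casp4 was lower in ADAM and the others were higher. Prr5l had 24.6 and 25.2 CPM in ADAM, against 13.4 and 9.22 CPM in AD (edgeR adjusted p = 0.027). Rbm45 had 13.5 and 11.1 CPM in ADAM, against 4.55 and 4.69 CPM in AD (edgeR adjusted p = 0.039). Both lie on chromosome 2, and neither was called with thinned cells. Socs3, Ccl12 and Egr1 are genes of cytokine signalling or the fast response. Socs3, the feedback inhibitor of JAK-STAT signalling (chr11:117966079-117970047), had 127 and 141 CPM in ADAM 1 and ADAM 2, against 76.4 and 65.5 CPM in AD 1 and AD 2. Its means were 134 ± 9.77 CPM in ADAM and 70.9 ± 7.67 CPM in AD (SD, n = 2 each) (log2 fold 0.92, SE 0.12, edgeR adjusted p = 0.0038). It stayed called under each alternative run, with an adjusted p of at most 0.0139. After thinning, a Socs3 UMI was found in 20.2% and 19.0% of ADAM cells and in 10.3% of cells in both AD libraries. Ccl12, a chemokine that attracts monocytes (chr11:82101845-82103400), had 68.0 and 73.6 CPM in ADAM, against 44.0 and 38.3 CPM in AD (log2 fold 0.79, SE 0.13, edgeR adjusted p = 0.025). Egr1, a transcription factor of the immediate early response, had 175 and 245 CPM in ADAM, against 114 and 111 CPM in AD (log2 fold 0.90, SE 0.14, edgeR adjusted p = 0.036). With cells thinned to 2000 UMIs Egr1 had a log2 fold of 0.76 and an adjusted p of 0.29, and without genes within 20 Mb of Axl or Mertk its adjusted p was 0.072, so it was called in neither. Ccl12 was not called in either alternative.

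Il1b, which encodes the cytokine interleukin 1 beta and lies beside Mertk (chr2:129364570-129371139), was higher in ADAM as well, at 53.5 and 53.2 CPM against 31.1 and 20.2 CPM (log2 fold 1.09, SE 0.17, edgeR adjusted p = 0.035). Few cells carried it: after thinning, 5.5% and 5.8% of ADAM cells and 3.5% and 2.1% of AD cells held an Il1b UMI, and 1 AD 2 cell held 44.0% of that library's Il1b UMIs. One ADAM 2 cell likewise held 21.2% of the Ccl12 UMIs. With the highest cell of each gene and library left out, the log2 folds were 1.33 for Il1b and 0.68 for Ccl12, and the adjusted p-values were 0.95 and 0.070, so neither was called. Without AD 2, Ccl12 had a log2 fold of 0.67 and an adjusted p of 0.053. Leaving out cells with a neutrophil or haemoglobin UMI kept 24 ADAM 2 cells; Socs3, Il1b and Egr1 were still called, with log2 folds of 1.02, 0.96 and 0.79, and Ccl12 was not (0.63, adjusted p = 0.0501).

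The inflammatory list as a whole leaned to ADAM without being uniform. Of 26 tested genes (of 30), 19 had a positive log2 fold with a median of 0.42, against 0.00 over all tested genes; 2 were called higher, Ccl12 and Il1b, and 1 lower. The lower one was Casp4, an inflammatory caspase that senses bacterial lipopolysaccharide, with 4.49 and 6.62 CPM in ADAM and 15.7 and 15.4 CPM in AD (log2 fold −1.46, SE 0.23, edgeR adjusted p = 0.023). Casp4 lost its call with a replicate block (adjusted p = 0.053), with thinned cells (0.185) and without genes within 20 Mb of Axl or Mertk (0.056). Libraries did not overlap, with ADAM higher, for 9 of the 26 (34.6%), where 17.4% of all tested genes did so. Il1a, the other interleukin 1 cytokine and also within 20 Mb of Mertk, had 18.0 and 12.7 CPM in ADAM and 8.60 and 6.95 CPM in AD. Nfkbia, the inhibitor of NF-kB, had 211 and 312 CPM against 143 and 156 CPM. Neither Il1a nor Nfkbia was called. The abundant chemokine Ccl4 had 1045 and 2078 CPM in ADAM and 1254 and 1135 CPM in AD, so that ADAM 2 alone was high. Without ADAM 2, the library with 704 CPM of neutrophil markers, the median of the list was 0.11; the part of those cells' RNA was not tested. Of the 16 tested feedback inhibitors, 1 was called, Socs3, and their median was 0.05.

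Most immediate early genes had a higher level in ADAM, but 1 was called. Of 31 tested genes (of 33), 29 had a positive log2 fold, the median was 0.45, and libraries did not overlap with ADAM higher for 18 (58.1%, against 17.4% of all tested genes) and with ADAM lower for 1. The called gene was Egr1. Jun, a subunit of the AP-1 transcription factor, had 1142 and 1369 CPM in ADAM, against 790 and 817 CPM in AD (log2 fold 0.64, SE 0.12, edgeR adjusted p = 0.060). Dusp6, a phosphatase that turns off ERK kinases, had 161 and 152 CPM in ADAM, against 97.8 and 108 CPM in AD (log2 fold 0.60, SE 0.11, edgeR adjusted p = 0.0505). Ppp1r15a, a stress-induced phosphatase subunit whose gene lies within 20 Mb of Axl, had 68.7 and 84.7 CPM in ADAM and 45.3 and 50.3 CPM in AD. Dusp1, a phosphatase of stress-activated kinases, had 313 and 408 CPM in ADAM and 240 and 244 CPM in AD. For Jun, Ppp1r15a and Dusp1, as for Egr1, ADAM 2 was the highest library, and without it the median of the list was 0.23. These genes respond to tissue dissociation, and its part in the shift was not tested.

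Promoters of these genes are shown because Socs3 was called and because the immediate early genes lay together on the ADAM side. The 250 bases before the transcript start were taken from RefSeq (GRCm38.p6) and searched on both strands for the cAMP response element TGACGTCA, the AP-1 site TGANTCA, the STAT site TTCNNNGAA and the CArG box. Of the 7 genes of this kind with a promoter that were looked at singly (Socs3, Ccl12, Dusp6, Jun, Ppp1r15a, Dusp1 and Ier5), 3 held a match, which is set in capitals in the sequences below, written 5′ to 3′ towards the start. Socs3 (chr11:117969367-117969616, minus strand) had 1 STAT site, 154 to 146 bases before the RefSeq start. Ppp1r15a (chr7:45526269-45526518, minus strand) and Dusp1 (chr17:26508473-26508722, minus strand) each had 1 cAMP response element, 12 to 5 and 143 to 136 bases before the start. GENCODE vM21 gives wider spans for Socs3 (chr11:117966079-117970047) and Dusp1 (chr17:26505590-26562128). By that annotation the stretches shown for Socs3 and Dusp1 lie inside the gene, so their place before the start holds for RefSeq alone.
Socs3: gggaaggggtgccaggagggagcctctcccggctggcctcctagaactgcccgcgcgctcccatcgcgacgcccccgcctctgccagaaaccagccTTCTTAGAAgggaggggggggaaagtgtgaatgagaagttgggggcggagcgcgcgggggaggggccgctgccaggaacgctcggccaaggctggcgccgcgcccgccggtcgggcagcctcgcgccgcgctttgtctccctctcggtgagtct
Ppp1r15a: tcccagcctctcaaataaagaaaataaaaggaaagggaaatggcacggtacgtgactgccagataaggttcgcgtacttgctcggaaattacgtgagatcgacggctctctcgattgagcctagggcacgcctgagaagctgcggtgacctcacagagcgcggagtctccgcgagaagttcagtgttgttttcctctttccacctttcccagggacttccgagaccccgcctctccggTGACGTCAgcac
Dusp1: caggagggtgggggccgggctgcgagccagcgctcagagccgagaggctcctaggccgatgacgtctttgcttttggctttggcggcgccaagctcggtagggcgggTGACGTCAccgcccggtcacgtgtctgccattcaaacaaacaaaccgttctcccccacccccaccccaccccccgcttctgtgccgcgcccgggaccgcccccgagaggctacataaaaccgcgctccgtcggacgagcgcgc
In all 32851 promoters of the table, the cAMP response element was found in 1.55%, the AP-1 site in 6.75%, the STAT site in 7.02% and the CArG box in 1.47%. Of the 26 immediate early genes with a promoter in the table, 3 held the cAMP response element and 1 each held the AP-1 site, the STAT site and the CArG box. A match is a run of letters and says nothing about binding.

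**Figure D4:**
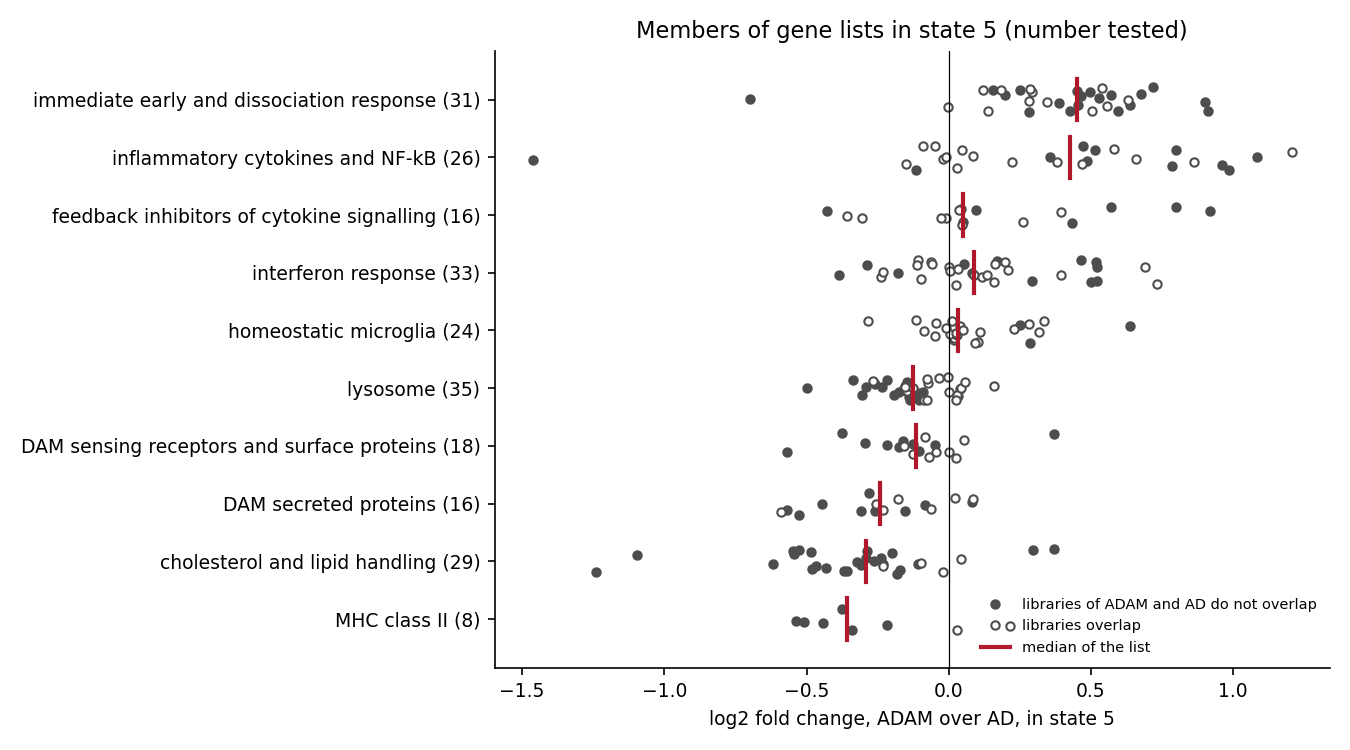
Log2 fold of ADAM over AD in state 5 (horizontal axis) for the tested members of 10 gene lists (rows, with the number tested); filled points are genes whose ADAM and AD libraries do not overlap, open points overlap, and red lines are medians. The median is 0.45 for the immediate early list and −0.29 for the cholesterol and lipid list.

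The genes that define the state leaned the other way. Among 16 tested genes of secreted disease-associated proteins, 13 had a negative log2 fold, the median was −0.24, and libraries did not overlap with ADAM lower for 8, against 16.3% of all tested genes, but 0 were called and 5 had an unadjusted p under 0.05. Of the 18 surface genes, 9 did not overlap with ADAM lower and the median was −0.11. Gpnmb stood nearest to a call, at 962 ± 128 CPM in ADAM and 1421 ± 96.1 CPM in AD (SD, n = 2 each; log2 fold −0.57, SE 0.12, edgeR adjusted p = 0.13). Lpl, the lipase that frees fatty acids from lipoproteins, had 659 and 901 CPM in ADAM and 1109 and 1126 CPM in AD (log2 fold −0.53, SE 0.14, edgeR adjusted p = 0.30). Spp1 had a log2 fold of −0.59 with an SE of 0.30 and an adjusted p of 0.97, and Cst7 one of −0.18 (SE 0.15). Trem2 had 6803 and 6848 CPM in ADAM and 8233 and 7564 CPM in AD, and its adaptor Tyrobp 9635 and 8736 CPM against 10320 and 9657 CPM. Tyrobp lies within 20 Mb of Axl. Without ADAM 1 the median of the secreted list was −0.13.

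Lipid genes were the list with the largest share on the AD side. Of 29 tested genes (of 32), 26 had a negative log2 fold, with a median of −0.29. Libraries did not overlap with ADAM lower for 23 (79.3%, against 16.3% of all tested genes). With ADAM lower, 13 had an unadjusted p under 0.05, beside 293 of all 10436 tested genes, and 0 were called. Apoc1, an apolipoprotein gene within 20 Mb of Axl, had 4.71 and 8.06 CPM in ADAM and 15.4 and 15.2 CPM in AD (log2 fold −1.24, SE 0.24, edgeR adjusted p = 0.067). Scd2, a fatty acid desaturase, had 117 and 118 CPM in ADAM and 164 and 152 CPM in AD. Of the sterol synthesis genes, Idi1 had 10.5 and 12.4 CPM in ADAM and 15.4 and 19.2 CPM in AD, and Fdps 30.4 and 21.1 CPM against 40.7 and 34.1 CPM. Apoe, the most abundant gene of the list and also within 20 Mb of Axl, had 28721 and 38461 CPM in ADAM and 36889 and 41628 CPM in AD, with overlapping libraries. The median of the list was between −0.34 and −0.28 with any 1 library left out.

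The promoter of Idi1 (chr13:8885356-8885605, plus strand, GRCm38.p6) is given as the one of 5 lipid genes looked at (Idi1, Fabp3, Ch25h, Insig1 and Srebf2) with more than 1 match to the CCAAT box, which many genes of sterol synthesis carry. Its 2 matches, in capitals, lie 45 to 41 and 14 to 10 bases before the RefSeq start and read ATTGG on the strand shown. GENCODE vM21 gives Idi1 the span chr13:8885501-8892451, so by that annotation both matches lie inside the gene.
Idi1: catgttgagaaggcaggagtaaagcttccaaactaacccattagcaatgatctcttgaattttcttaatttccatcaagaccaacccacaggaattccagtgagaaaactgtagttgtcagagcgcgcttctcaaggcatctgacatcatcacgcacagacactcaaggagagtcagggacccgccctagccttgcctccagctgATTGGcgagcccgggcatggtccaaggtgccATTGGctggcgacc
A CCAAT box was found in 12 of the 20 lipid genes with a promoter in the table and in 33.8% of all promoters, and a sterol regulatory element (TCACNCCAC) in 1 of the 20 and in 1.05% of all promoters. At 5 letters the CCAAT box is short, and no match was tested.

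Lysosomal and MHC class II genes also lay mostly on the AD side, with 0 called. Of 35 lysosomal genes, 27 had a negative log2 fold, with a median of −0.13. Libraries did not overlap with ADAM lower for 16 (45.7%, against 16.3% of all tested genes). Atp6v0d2, the proton pump subunit with the highest ratio to state 0, was not called (log2 fold −0.50, SE 0.14, edgeR adjusted p = 0.42). Ctsd, the protease cathepsin D, had 14005 and 14302 CPM in ADAM and 18602 and 16172 CPM in AD. Of 8 MHC class II genes, 6 did not overlap with ADAM lower, where 16.3% of all tested genes did so, and the median was −0.36. H2-Ab1, a class II beta chain, had 591 and 573 CPM in ADAM and 954 and 694 CPM in AD (log2 fold −0.51, SE 0.14, edgeR adjusted p = 0.43), and Cd74, the invariant chain, 2998 and 2826 CPM against 4356 and 3154 CPM. AD 1 was the highest library for both genes, and without AD 1 the median of the class II list was −0.11 and that of the lysosomal list −0.06.

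The medians of the remaining lists stood near that of all tested genes or changed sign with 1 library. Libraries did not overlap with ADAM lower for 9 of 27 phagocytosis and complement genes (33.3%, against 16.3% of all tested genes). With ADAM higher they did not overlap for 9 of 33 interferon genes (27.3%, against 17.4% of all tested genes). The same held for 5 of 18 transcription factors (27.8%) and 4 of 14 proliferation genes (28.6%). For homeostatic genes, 18 of 24 were positive and 0 called, around a median of 0.03 that was −0.05 without ADAM 1. The interferon list had a median of 0.09 over 33 tested genes with 0 called, and −0.01 without ADAM 2; Ifitm3, a membrane protein that restricts viruses, had 156 and 147 CPM in ADAM and 99.4 and 118 CPM in AD (edgeR adjusted p = 0.22). MHC class I genes had a median of −0.04, glycolysis genes of 0.06 and phagocytosis and complement genes of −0.06, each with 0 called and each with the opposite sign when 1 library was left out. Among complement genes the subunits C1qa, C1qb and C1qc were lower in both ADAM libraries, C1qa at 9197 and 8332 CPM against 10446 and 10510 CPM in AD, and C4b was higher, at 3.85 and 7.88 CPM against 0.758 and 1.46 CPM (edgeR adjusted p = 0.10). Proliferation genes had a median of −0.10 over 14 tested of 21, with Pcna the one call, and 7 of the list, among them Mki67 and Top2a, were too low to test. Transcription factors had a median of 0.04; Nfe2l2, the regulator of antioxidant genes, had 269 and 255 CPM in ADAM and 332 and 365 CPM in AD (edgeR adjusted p = 0.24).

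Whether the genotype difference in state 5 departed from that in state 0 was tested directly. The state by genotype term, with the library as a block, was called for 116 of 11132 tested genes (1.04%), 30 with a higher log2 fold in state 5 (0.269%) and 86 with a lower one (0.773%); 989 had an unadjusted p under 0.05 and 12 of the 116 lay within 20 Mb of Axl or Mertk. Without ADAM 2 the split was 45 higher and 33 lower, and 40 of the 116 were still called. Apoe in state 0 had 3537 and 9100 CPM in ADAM 1 and ADAM 2, against 3278 and 3874 CPM in AD, so that state 0 of ADAM 2 stood apart there.

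Of the 31 immediate early genes tested here, 7 were called with a higher log2 fold in state 5 than in state 0, where 0.269% of all tested genes were. Called with a lower log2 fold were 0 of the list. Egr1 in state 0 had 662 and 1003 CPM in ADAM and 934 and 814 CPM in AD, with a log2 fold of 0.02, so that the difference between the states was 0.88 (SE 0.13, edgeR adjusted p = 1.4e-08). The difference for Egr1 lay between 0.80 and 0.96 with any 1 library left out. Fosb, another AP-1 subunit, differed by 0.70 (SE 0.11, edgeR adjusted p = 3.5e-06), and Jun, Dusp6, Jund, Btg2 and Ier5 by 0.54, 0.54, 0.47, 0.48 and 0.49. Without AD 2 neither Fosb nor Dusp6 was called (edgeR adjusted p = 0.13 for both). In all 4 libraries Egr1 was lower in state 5 than in state 0.

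On the lower side stood genes that state 5 expresses more than state 0. Lgals1, which encodes galectin 1, had 28.7 and 41.7 CPM in ADAM and 47.5 and 65.5 CPM in AD in state 5, and 9.07 and 10.2 CPM in ADAM and 4.29 and 4.80 CPM in AD in state 0. The log2 folds were −0.69 in state 5 and 1.11 in state 0, neither called, and their difference was −1.92 (SE 0.24, edgeR adjusted p = 1.6e-11). Lgals3, galectin 3, had 203 and 282 CPM in ADAM and 229 and 347 CPM in AD in state 5, and 22.0 and 25.3 CPM against 16.3 and 17.1 CPM in state 0 (difference −0.93, SE 0.15, edgeR adjusted p = 1.6e-06; 0.30 without AD 2). Cybb, the catalytic chain of the phagocyte NADPH oxidase, differed by −1.27 (SE 0.16, edgeR adjusted p = 1.0e-10). H2-Ab1 and H2-Eb1 differed by −0.81 and −1.04, and Cd74 by −0.81; H2-Ab1 was not called without AD 2 (edgeR adjusted p = 0.086). Of the secreted list, 6 of 16 genes were called with a lower log2 fold in state 5 than in state 0, where 0.773% of all tested genes were, among them Apoe at −1.0 and Cst7 at −0.66. Of the surface list 4 of 18 were so called and of the phagocytosis list 5 of 27, with Cd300a, an inhibitory receptor for membrane lipids, on the other side at 0.45. Cst7 itself had a log2 fold of −0.18 in state 5. In state 0 Cst7 had 197 and 203 CPM in ADAM 1 and ADAM 2, against 196 and 116 CPM in AD 1 and AD 2, so that AD 2 alone was low there.

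**Figure D5:**
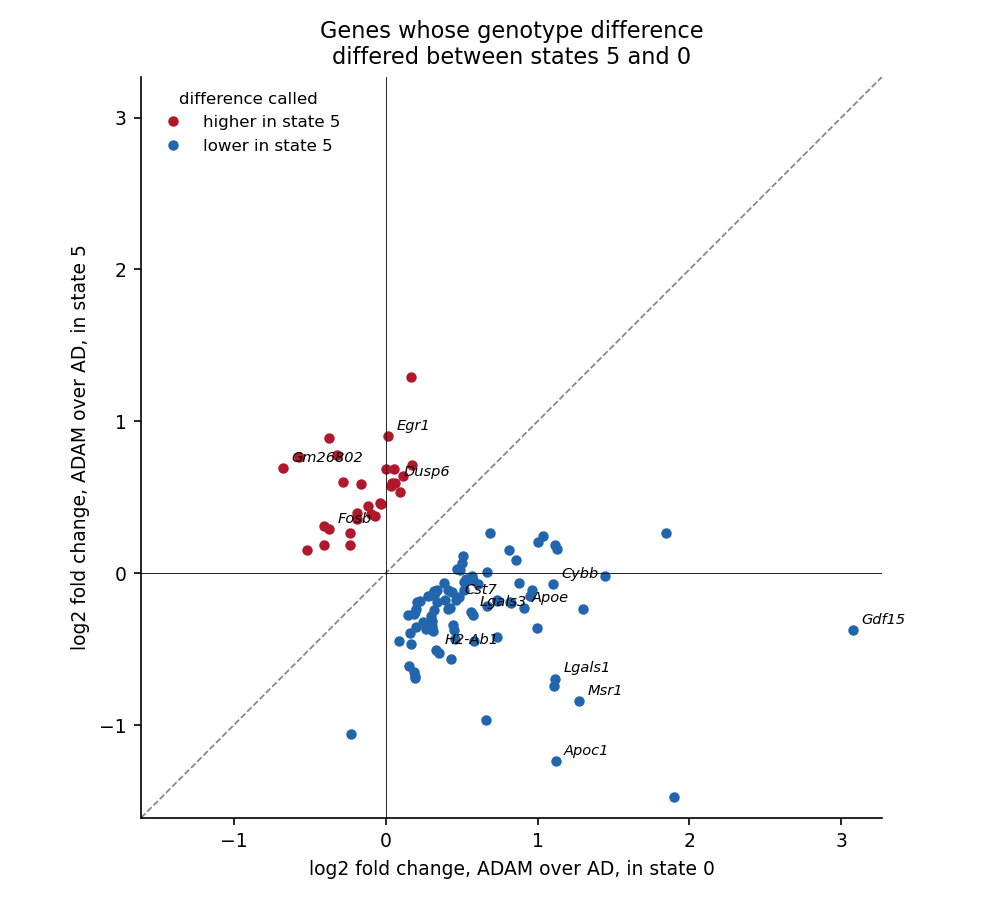
Log2 fold of ADAM over AD in state 0 (horizontal axis) and in state 5 (vertical axis) for 114 of the 116 genes whose genotype difference differed between the states; the other 2 had no fold in 1 of the states, and the dashed line marks equal folds. Egr1 lies at 0.02 in state 0 and 0.90 in state 5, and Lgals1 at 1.11 in state 0 and −0.69 in state 5.

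State 4, the Mmp12 state that shares high Spp1 and Apoe, offered a thinner comparison, with 44 and 23 cells in ADAM and 29 and 62 in AD. The same term was called for 9 of 10011 tested genes (0.0899%), 6 with a higher log2 fold in state 5 (0.0599%) and 3 with a lower one (0.03%). Il1b in state 4 had 108 and 63.7 CPM in ADAM and 122 and 99.8 CPM in AD, with a log2 fold of −0.28, so that the difference of state 5 from state 4 was 1.44 (SE 0.33, edgeR adjusted p = 0.019). Il1a differed by 2.24 (SE 0.53, edgeR adjusted p = 0.030). Its state 4 levels were 18.4 and 39.2 CPM in ADAM, from 8 and 8 UMIs, against 61.1 and 54.0 CPM in AD, from 11 and 33 UMIs. Ccl5, a chemokine of T cells, had 548 and 588 CPM in ADAM state 4 cells and 211 and 113 CPM in AD state 4 cells, and stayed between 13.2 and 26.3 CPM in state 5 (difference −2.04, SE 0.28, edgeR adjusted p = 2.8e-09). S100a9, Retnlg and Slpi, genes of neutrophils, were also called; S100a9 had 2.30 and 211 CPM in ADAM and 5.56 and 255 CPM in AD in state 4, against 5.99 and 317 CPM in ADAM and 2.53 and 11.2 CPM in AD in state 5. Without AD 2, the S100a9 difference was 1.70 and the Slpi difference −4.29, with neither called. Ccl5 was the one gene of the 9 that stayed called with any 1 library left out. Socs3 was not among the called genes of either test between states: its log2 fold was 0.41 in state 0 (SE 0.46) and 0.42 in state 4 (SE 0.29), beside 0.92 in state 5.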

How the data were processed

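The authors deposited raw UMI counts for 16798 genes in 15451 cells, without normalization, and a cell table with each cell's library, class, microglia state, UMI count, mitochondrial percent and doublet mark; the percent is deposited by the authors. Cell Ranger 3.1.0, the build mm10 and Seurat 3.2.1.9002 appear in the submitters' processing notes, with no role stated. How the states were clustered is not given in the sources. Doublets were treated as the authors marked them, and no further cell was removed. Libraries were 10x 3′ v3.1 chemistry, per the labels' protocols, so counts follow tags near the 3′ end. UMI counts were summed per library and state, and libraries were the replicates (2 of each genotype). CPM are per 1000000 UMIs of the state in a library, without further scaling.

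The edgeR 4.0.16 quasi-likelihood test (R 4.3.3; TMM factors 0.991 to 1.01, expression filter with a minimum count of 10, robust fit, Benjamini-Hochberg adjustment at 0.05) was run on all genes. The labels do not say whether the pooled cortices shared litters or days, and p-values measure only the spread between these libraries. Differences between states used the state by genotype term with library as a block, for states 0 and 4 alone, each with at least 20 cells in each library. Alternatives used DESeq2 1.42.0 and limma 3.58.1 (voom). Gene positions are from GENCODE vM21, where 16580 gene names matched exactly once.

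The members and the 16 gene lists were chosen with earlier results of these data known, and no list is independent evidence of its direction. Genes named were the state's markers, the TAM receptors and ligands, all called genes, up to 5 members of each list with the lowest p among those without overlap and up to 3 with the highest CPM, up to 10 called differences per direction between states, and the genes with the highest and lowest ratio to state 0; other genes were chosen after their values were seen. Promoters were matched by gene symbol, and Egr1 had no entry.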

Additional observations from a re-analysis of the deposited data

Results flagged for a closer look

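The genotype difference of state 5 differed from that of state 0 for 116 genes and from that of state 4 for 9 genes, by the edgeR test of the state by genotype term. Values are the log2 fold of ADAM over AD in state 5 minus that in the other state.

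Against state 0, the named genes with a lower log2 fold in state 5 were Lgals1 at −1.92, Cybb at −1.27, Lgals3 at −0.93, Tmem205 at −1.02, Fxyd5 at −0.86, Ms4a6c at −0.89, H2-Ab1 at −0.81, the scavenger receptor gene Msr1 at −2.27, Rftn1 at −1.09 and Galc, a lysosomal galactosylceramidase, at −0.76. Those with a higher log2 fold in state 5 were Egr1 at 0.88, Gm26802 at 1.36, Fosb at 0.70, Tmx4 at 0.65, Gm26532 at 0.73, Dusp6 at 0.54, Txnip at 0.56, the kinase gene Sgk1 at 0.55, the tight junction gene Tjp1 at 0.74 and Ppp1r10 at 0.51.

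Against state 4, the log2 fold in state 5 was higher for S100a9 by 5.02, Retnlg by 5.87, Slpi by 5.23, Il1b by 1.44, Il1a by 2.24 and Rcan1 by 2.14. S100a9, Retnlg and Slpi are neutrophil genes, and state 4 of AD 2 held 156 S100a9, 51 Retnlg and 38 Slpi UMIs. Without AD 2 the Slpi difference turned to −4.29 and the S100a9 difference was 1.70, and neither was called. The difference was negative for Ccl5 (−2.04), Ndufs6 (−1.69) and Ifitm2 (−1.90).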

How the results depend on the processing

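The count of 16 genes called between the genotypes in state 5 was 16 with DESeq2 size factors, 17 with library totals alone, 21 with DESeq2 (11 of them shared), 12 with limma-voom, 17 with cells thinned to 2000 UMIs (8 shared) and 17 without the highest cell of each gene (14 shared), an alternative chosen after seeing the data. It was 112 without the filter, 45 without cells holding a neutrophil or haemoglobin UMI, and 2 (Eif3j2 and Socs3) without genes within 20 Mb of Axl or Mertk, where 476 fewer genes were tested and the fit and adjustment differ. With 1 library left out the count was between 30 and 141: 141 without ADAM 1, 124 without ADAM 2, 30 without AD 1 and 66 without AD 2, with the lone library of a genotype assumed to vary like the others. A replicate block gave 16 calls, 11 of them shared; the same-numbered libraries' deviations correlated at 0.064, so the numbers were not taken to pair them. For state 5 against state 0 the count of 116 was 137 with DESeq2 size factors, 131 without the filter, and between 51 and 173 with 1 library left out. For state 5 against state 4 the count of 9 was between 5 and 17, and the Slpi difference of 5.23 was between −4.29, reversed, without AD 2 and 10.07 without ADAM 2; the cause was not tested. ADAM minus AD in the share of microglia was 2.12 percentage points, 1.70 among all cells with a class, and between −4.79 and 9.04 with 1 library left out. The mean share of state 5 cells with 3 or 4 markers was 53.2% at 2000 UMIs, 68.2% without thinning and 68.7% at 4000 UMIs, over different sets of cells. Of 482 pairs of a named gene and an alternative, 408 kept direction and side of the threshold, 65 lost the call, 8 gained it and 1 reversed. Depth limits Il1b, with a UMI in under 6% of thinned cells; without the highest cells Ccl12 and Il1b lost their calls, and without AD 2 Ccl12, Prr5l and Pcna-ps2 did.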
